A study of Rattus norvegicus with 2 samples.

Results

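The Ccn3-Irx3-Scg3 cells were 1624 cells of the cochlear duct of newborn Sprague-Dawley rats, 1186 at P1 (postnatal day 1) and 438 at P7, among 25360 cells that passed the quality limits. They were picked by 3 genes. A retained cell was counted as a member where Ccn3 made up at least 0.4% of its UMIs (unique molecular identifiers, 1 per captured transcript), where Irx3 and Scg3 together had at least 3 UMIs, and where neither Top2a nor Ube2c, which mark dividing cells, had a UMI. The levels of these genes therefore only describe the choice. Each age was 1 droplet library of the 10x Genomics 3' kit, made from the pooled tissue of 40 male or female rats without any treatment. The duct was dissected free of stria vascularis, spiral ligament and spiral ganglion, then dissociated with collagenase IV, papain and DNase I. With 1 library at each age, age and library cannot be told apart, no test was run, and every interval below covers counting error only.

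The mesenchyme of the cochlea is the connective tissue around and beneath the sensory epithelium, and it gives rise to the fibrocytes of the lateral wall and limbus and to the cells that line the fluid spaces. CCN3 is a secreted matricellular protein, IRX3 is a homeodomain transcription factor of the Iroquois family, and SCG3 is a granin that sorts cargo into secretory granules. Several of the genes highest in these cells, among them Sp5, Nkd1, Nkd2 and Notum, belong to canonical Wnt signalling. There, Wnt ligands bind Frizzled receptors and LRP co-receptors, beta-catenin enters the nucleus, and with TCF and LEF proteins it switches on targets such as Axin2, Nkd1, Sp5 and Notum, several of which damp the pathway in turn.

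Mesenchymal genes were expressed in the members at levels like those of the rest of the library. Levels are given as CPM, counts of a gene summed over the cells of a group and scaled to the same total of UMIs in every group. Vim, an intermediate filament of mesenchymal and glial cells, stood at 5184 CPM at P1 and 3926 at P7. Pou3f4, a transcription factor of the otic mesenchyme, stood at 564 and 389 CPM in the members, against 59.6 and 99.8 in macrophage cells. Macrophages should lack it, so their value stands for free RNA, the transcripts of broken cells that any droplet can take up. Tbx18, needed in the same tissue, stood at 443 CPM at both ages, against 31.9 and 98.3 in macrophage cells. Twist1 stood at 174 and 194 CPM. Of 17 listed mesenchymal genes, 14 reached 20 CPM, with median log2 ratios of members to other retained cells of 0.28 and 0.18. At each age 1 of these was at least 2-fold higher and 2 at least 2-fold lower in the members. Over all genes, 2.56% were that much higher and 8.76% lower at P1, with 2.65% and 7.09% at P7. These shares apply to every list set against the other retained cells below. Col1a1 and Col3a1, the collagens by which fibroblasts are usually known, were in contrast no higher in the members than in macrophage cells. The submitters labelled the tissue as greater epithelial ridge cells, an epithelium of the duct's inner side. The 21 epithelial markers summed to 45.5 CPM in the members at P1 and 145 at P7, against 104 and 128 CPM in macrophage cells, and 4 of them were at 0 at each age. Among these, Epcam stood at 6.68 and 7.42 CPM and Sox2 at 4.10 and 8.44 CPM, so the epithelial markers that the label implies were near the level of free RNA. The authors counted a cluster marked by Ccn3, Irx3, Scg3 and Postn among the ridge cells. By in situ hybridization they also reported Ccn3 signal in that region at P1, largely overlapping that of the gene Otor, and a reduced Ccn3 signal at P7. Whether their cluster holds the same cells was not tested.

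The libraries held 14068 barcodes and 114285848 UMIs at P1, and 14501 barcodes and 101264868 UMIs at P7, where the labels aimed at 5000 cells each. The retained cells numbered 12779 and 12581. The median member held 7328.5 UMIs at P1 and 8190 at P7, that of the other retained cells 6489 and 6802. The median share of mitochondrial UMIs was 5.87% and 7.15% in members. Scrublet called 53 P1 members (4.47%) and 18 P7 members (4.11%) as doublets, against 4.88% and 6.22% of the other retained cells, and they were kept. Of the 60 barcodes that both libraries share, 3 were P1 members and 1 was a P7 member. At least 10 UMIs of glial genes were found in 10 P1 members and 17 P7 members, and as many of macrophage genes in 1 and 2.

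Members were 9.28% of the retained cells at P1 (1186 of 12779, exact Clopper-Pearson 95% interval 8.78 to 9.80%) and 3.48% at P7 (438 of 12581, 3.17 to 3.82%). The log2 ratio of the shares, P7 over P1, was -1.41, with a counting interval of -1.58 to -1.26. Every other limit tried for the rule gave a lower share at P7. The ratio was -1.12 with a sum of at least 2 Irx3 and Scg3 UMIs, and -1.98 with at least 5. The rule depends on levels that can differ between the ages. In the other retained cells the log2 ratio of P7 to P1 was -0.12 for Irx3 and -0.64 for Scg3, and their part in the lower share was not tested. The Ccn3 limit alone was met by 1767 retained cells without a Top2a or Ube2c UMI at P1 and 954 at P7. A share also depends on the other cells of the library. Glial cells outside the members were 12.8% of the retained cells at P1 and 30.5% at P7, and their part was not tested.

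Near the limits the cells formed no gap. With the Irx3 and Scg3 sum met, 105 P1 cells and 63 P7 cells had Ccn3 between 0.3% and 0.4% of UMIs, and 115 and 49 members lay between 0.4% and 0.5%. With Ccn3 met, 181 cells at each age had a sum of 2 UMIs, while 143 P1 members and 117 P7 members had exactly 3. The division rule removed 184 cells at P1 and 79 at P7 that met the other limits.

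Ccn3 ranged in the members from the limit of 0.4% to 2.37% of a cell's UMIs at P1, with a median of 0.794%, and from 0.401% to 3.80% at P7, with a median of 0.949%. The median P1 member held 61 Ccn3 UMIs and the median P7 member 80.5. Its summed level was 8217 CPM at P1 and 10326 CPM at P7, against 989 and 925 CPM in the other retained cells. Irx3 stood at 502 and 374 CPM, and its median over single members was 490 CPM at P1 and 366 at P7. Scg3 stood at 592 and 248 CPM, with cell medians of 440 and 153. Both Irx3 and Scg3 were seen in 970 P1 members (81.8%) and 292 P7 members (66.7%). Irx3 alone brought in 172 and 131 cells, Scg3 alone 44 and 15. The P7 cells thus entered more by Irx3 without Scg3 than the P1 cells did, with a lower quartile of Scg3 at 0 CPM.

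The other genes given as markers were at least 2-fold higher than in the other retained cells at both ages. Summed over all members, they were lower at P7. Postn encodes periostin, a matricellular protein that binds integrins and collagen. It stood at 1242 CPM at P1 and 1072 at P7. Ccdc80, a secreted matrix protein, stood at 804 and 273 CPM. Slc1a3, the glutamate and aspartate transporter GLAST, stood at 801 and 387 CPM. In cells thinned to 2000 UMIs, Postn was seen in 80.3% of P1 members and 62.01% of P7 members (95.4% and 85.6% before thinning), against 2.5% and 11.04% of macrophage cells. Slc1a3 was seen in 69.7% and 44.4% of members (93.2% and 74.1% before thinning), against 10.6% and 12.3% of macrophage cells, whose median depths were 7729 and 7164 UMIs. Both genes were thus found in most P1 members well above the share that free RNA gives. The log2 ratio of P7 to P1 was -1.56 for Ccdc80 (-1.65 to -1.47), -1.05 for Slc1a3 (-1.13 to -0.97) and -0.21 for Postn (-0.26 to -0.16). In the other retained cells Ccdc80 and Slc1a3 were also lower at P7, with log2 ratios of -0.91 and -0.81, while Postn was at 0.27. In members with at least 3 UMIs of Aldh1a2 and Scara3, a split described further on, Postn was higher at P7, at 0.25. In members without such UMIs it was at -0.46. Slc1a3 was at -0.43 and -2.21, and Ccdc80 at -1.06 and -2.49, in the same order.

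The leading genes of the members overlapped between the ages. Of the 20 with the highest ratio to the other retained cells, among genes at 50 CPM or more in the members, 13 were shared by the P1 and P7 lists, the rule genes Ccn3 and Scg3 among them. These ratios describe the cells the rule picked and carry no test. Over all genes at 20 CPM or more on either side, 2.56% were at least 2-fold higher in the members at P1 and 8.76% at least 2-fold lower, with 2.65% and 7.09% at P7. Cav1, the coat protein of caveolae, led at P1 with 877 CPM against 81.7, a log2 ratio of 3.42, and stood at 524 against 52.5 CPM at P7. Its partner Cav2 stood at 75.02 and 77.3 CPM, with log2 ratios of 2.88 and 2.83. Olfm1, a secreted olfactomedin protein, stood at 422 CPM at P1 and 149 at P7, and the matrix protein gene Tnc (tenascin C) at 165 and 185. Tnfaip6, whose product binds and crosslinks hyaluronan, stood at 379 and 723 CPM, against 72.6 and 141 in the other retained cells.

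Other genes were among the 20 at 1 age, in part through the limit of 50 CPM. Dach1, a transcriptional repressor, was in the P1 list at 110 CPM and under that limit at P7 with 42.5 CPM, though its log2 ratio to the other retained cells was 2.72 at both ages. Postn, Ccdc80 and Irx3 were in the P1 list, with log2 ratios of 2.56, 2.61 and 2.41, and had 2.08, 1.96 and 2.11 at P7. At P7 Maob, which encodes monoamine oxidase B, entered with 175 CPM against 30.9, after 61.2 against 25.02 at P1. Aldh1a2, the retinoic acid synthesis enzyme, entered at P7 with 334 CPM against 56.9, though its level in the members at P1 was 349 CPM. Its log2 ratio of P7 to P1 in the members was -0.06.

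Sp5, Nkd1, Nkd2 and Notum, all of the Wnt pathway, were among the 20 leading genes at both ages. Of 19 listed targets and intracellular feedback genes, 18 were in the files and 14 reached 20 CPM at P1. Of these, 8 were at least 2-fold higher in the members than in the other retained cells, none at least 2-fold lower, and the median log2 ratio was 1.23, where the median of all genes was 0.00. At P7 the same 8 of 11 were at least 2-fold higher and none lower, with a median of 1.61. Those 8 were Sp5, Nkd2, Nkd1, Axin2, Lef1, Tnfrsf19, Ccnd2 and Daam1. The remaining genes, among them Tcf7l1, Tcf7l2 and Ccnd1, had log2 ratios between -0.16 and 0.92. The summed level of the whole list was 1757 CPM in the members at P1 and 1566 at P7, against 606 and 555 in the other retained cells and 297 and 392 in macrophage cells.

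Sp5, a zinc finger repressor and direct Wnt target, stood at 200 CPM in the members at P1 and 73.2 at P7. The other retained cells had 21.7 and 6.82 CPM, and macrophage cells 4.97 and 2.28. Its level in the members was above that of every group plotted, at each age, and its log2 ratio to the other retained cells was 3.21 at P1 and 3.42 at P7. Nkd2, a Dishevelled antagonist of the Naked cuticle family, stood at 310.3 and 271 CPM, against 35.5 and 32.1. The related Nkd1 stood at 199.6 and 219 CPM, against 28.1 and 41.2. Axin2, a scaffold of the complex that degrades beta-catenin, stood at 135 and 123 CPM, against 35.5 and 26.6. Lef1, the transcription factor through which beta-catenin acts, stood at 196 and 249 CPM, against 67.2 and 81.5. Between the ages Sp5 alone of these moved past 2-fold, and Axin2, Nkd1, Nkd2 and Lef1 had log2 ratios of -0.13, 0.14, -0.20 and 0.34.

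The genes for extracellular Wnt antagonists were unevenly expressed, with some far above and others far below the rest of the library. Notum, which encodes an enzyme that strips the lipid from Wnt ligands, stood at 148 CPM at P1 and 539 at P7, against 16.8 and 42.0 in the other retained cells. Wif1, which encodes a secreted Wnt-binding protein, stood at 122 and 257 CPM, against 38.5 and 55.8. Apcdd1, a membrane-bound inhibitor, stood at 108 and 176 CPM, against 51.5 and 45.5. Sfrp1, a secreted Frizzled-related antagonist, was low instead, at 44.5 and 22.3 CPM against 256 and 167. Sostdc1, which antagonises Wnt and BMP, stood at 2.1 and 15.9 CPM against 33.2 and 190.2. Of 8 modulators at 20 CPM or more at P1, 3 were at least 2-fold higher and 3 at least 2-fold lower, and of 10 at P7 it was 4 and 4, with median log2 ratios of 0.52 and 0.14.

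A pair of Frizzled genes was high in the members. Fzd10 stood at 24.7 and 36.1 CPM against 3.42 and 4.77 in the other retained cells, and Fzd1 at 125 and 135 CPM against 34.1 and 46.9. They were the 2 of 5 receptor genes at P1, and of 6 at P7, that were at least 2-fold higher, and none was at least 2-fold lower. No Wnt ligand gene was at least 2-fold higher in the members at either age. Wnt5a, mostly a ligand of beta-catenin-independent signalling, stood at 32.8 CPM at P1 and 78.3 at P7. Wnt6 stood at 2.58 and 8.44 CPM, near its 4.97 and 6.85 in macrophage cells, against 73.4 and 107 CPM in the Aldh1a2-Scara3 cells described further on. Wls, whose product carries Wnt ligands to the cell surface, stood at 101 and 61.9 CPM in the members.

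**Figure D1:**
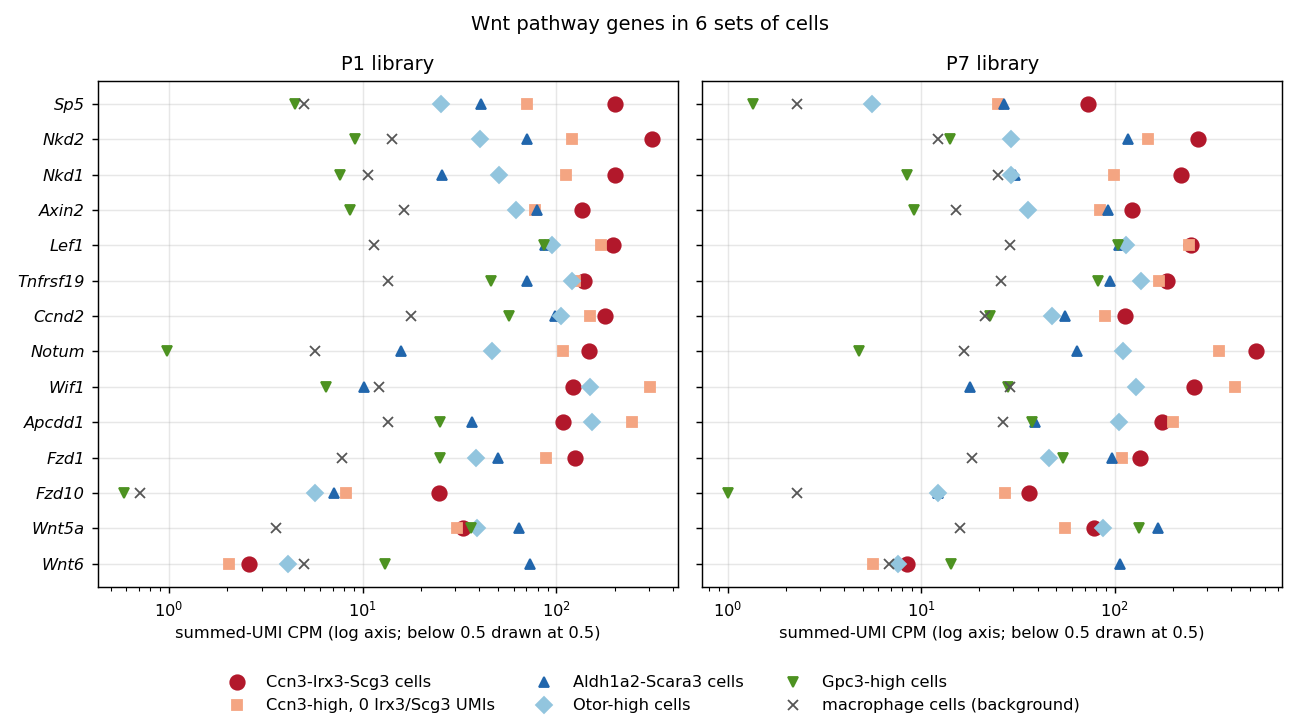
Levels of 14 Wnt pathway genes as CPM on a log axis, from UMIs summed over the cells of 6 groups, with P1 and P7 in separate panels and no replicate at either age. Sp5, Nkd1, Nkd2 and Notum were highest in the Ccn3-Irx3-Scg3 cells at both ages, while Wnt6 stood highest in the Aldh1a2-Scara3 cells, at 73.4 and 107 CPM.

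Detection in single cells gave the same picture after each cell was thinned to 2000 UMIs, a depth that 1185 of the P1 and 437 of the P7 members reached. Sp5 was seen in 30.8% of P1 members and 11.2% of P7 members (67.0% and 36.4% before thinning). In macrophage cells it was seen in 0 of 160 at P1, which allows a share of up to 2.28%, and in 0.649% at P7. Nkd2 was seen in 42.5% and 36.4% of members (77.1% and 70.9% before thinning) and in 2.5% and 3.25% of macrophage cells. Axin2 was seen in 21.6% and 19.2% of members (59.2% and 54.5% before thinning) and in 2.5% and 1.95% of macrophage cells. Notum went the other way between the ages, from 22.2% to 44.6% (55.5% and 70.3% before thinning), with 0 of 160 macrophage cells at P1 and 2.60% at P7. These shares lay above the free RNA level, whereas Epcam, seen in 1.01% and 2.29% of members and 1.25% and 0.649% of macrophage cells, lay near it.

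Motif matches in the promoters of the Wnt genes are shown because the list above is defined by this pathway. ATCAAAG, a form of the site that TCF and LEF proteins bind, was searched on both strands of RefSeq promoter windows (build GRCr8, 250 bases before to 50 bases after each gene's start), a later build than the rn6 of the count tables. It was found in 1216 of 33469 windows, or 3.63%. Of the 19 listed Wnt genes 15 had a window, and 4 of those windows held the motif, namely those of Axin2, Nkd1, Sp5 and Tcf7. Axin2, Nkd1 and Sp5 were at least 2-fold higher in the members than in the other retained cells, while Tcf7 stood at 9.54 and 3.84 CPM. Nkd2 and Lef1, which are not among these 4 genes, were also at least 2-fold higher. The stretches around the match lie before the gene's start, at chr10:94398606-94398706 on the plus strand for Axin2, chr19:34722934-34723034 on the minus strand for Nkd1 and chr3:75682526-75682626 on the plus strand for Sp5. They are printed 5′ to 3′ along the gene, with capitals marking the motif, which reads as its reverse complement in all 3.
Axin2: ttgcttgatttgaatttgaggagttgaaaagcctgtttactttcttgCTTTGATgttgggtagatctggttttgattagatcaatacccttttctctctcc
Nkd1: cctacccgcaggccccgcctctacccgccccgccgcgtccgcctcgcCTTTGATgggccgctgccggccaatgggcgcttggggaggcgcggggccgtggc
Sp5: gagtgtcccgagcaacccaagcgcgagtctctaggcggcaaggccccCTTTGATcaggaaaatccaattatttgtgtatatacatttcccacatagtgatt
The motif ended 125 bases before the start of Axin2, 134 before that of Nkd1 and 97 before that of Sp5. A match describes these letters and is not evidence of a bound site.

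The members held a large part of all the transcripts of several genes in their library. At P1 they held 10.7% of all UMIs in retained cells and 56.2% of those of Cav1, 52.5% of Sp5 (2094 UMIs), 51.3% of Notum (1549 UMIs), 51.1% of Nkd2 and 46.4% of Fzd10. At P7 they held 4.20% of all UMIs and 30.5% of Cav1, 32.0% of Sp5 (286 UMIs), 36% of Notum (2107 UMIs), 27.0% of Nkd2 and 24.9% of Fzd10. Axin2 was spread more widely, with 31.3% and 16.8% of its UMIs in the members, and so was Lef1 with 25.9% and 11.8%. Irx3, though a rule gene, had 38.9% and 15.9% of its UMIs in the members. Vim was near the share of all genes, at 12.1% and 3.77%, and Dcn, the proteoglycan decorin of interstitial fibroblasts, was far under it, at 0.991% and 0.441%.

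**Figure D2:**
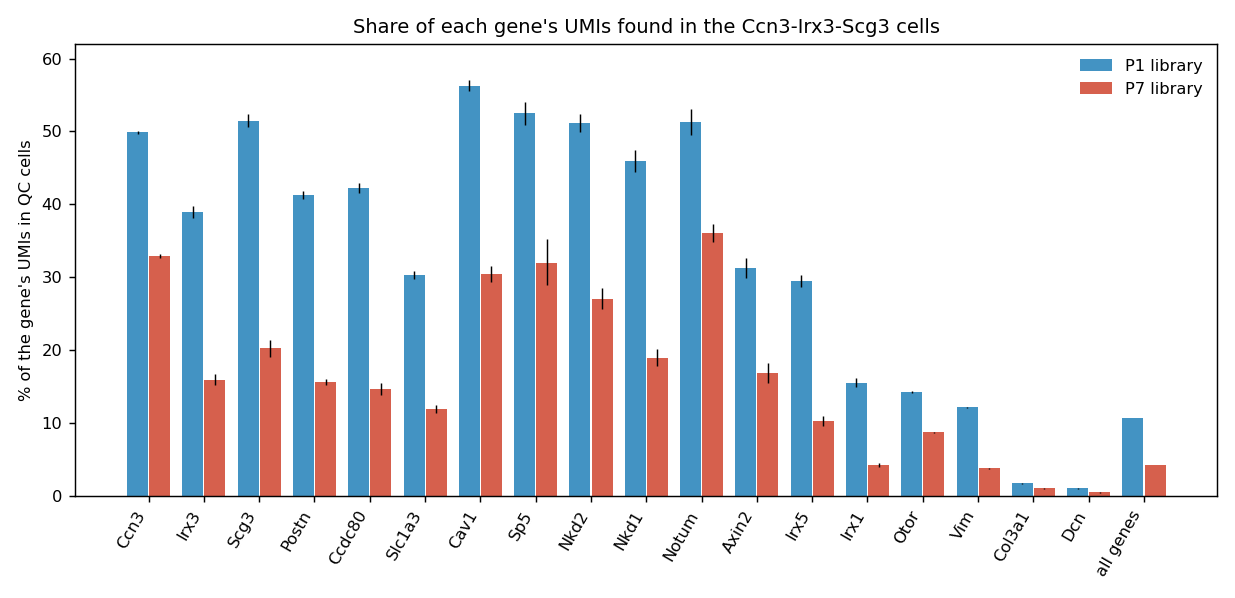
Percent of each gene's UMIs in retained cells that lay in the Ccn3-Irx3-Scg3 cells, at P1 and P7, with exact 95% Clopper-Pearson intervals for counting error only. Cav1, Sp5 and Notum stood above 50% at P1 and at 30.5% to 36% at P7, against 10.7% and 4.20% for all genes together, and Col3a1 and Dcn lay under the share of all genes.

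Among the Iroquois genes, Irx5 followed the rule gene Irx3, its neighbour in the same gene cluster. Irx5 stood at 336 CPM in the members at P1 and 199 at P7, against 96.2 and 76.7 in the other retained cells. Irx1, from the other Iroquois cluster, stood at 219.8 and 221 CPM against 143 and 220.02. Irx2 stood at 22.2 and 13.3 CPM. Beside the rule gene Irx3, Irx5 was the gene of this list at least 2-fold higher at each age, and Irx1 at P7 had a log2 ratio of 0.01.

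Matricellular genes differed from the other retained cells in both directions. Of 13 such genes at P1, Postn, Tnc and the rule gene Ccn3 were at least 2-fold higher and 9 at least 2-fold lower, and of 14 at P7 the same 3 were higher and 7 lower. The choice of the cells fixed the direction of Ccn3, and Postn was given as a marker. Ccn1 and Ccn2, relatives of Ccn3 that respond to YAP and TGF-beta, stood at 7.06 and 10.7 CPM and at 45.05 and 15.6 CPM. Their log2 ratios to the other retained cells were -3.28 and -2.11 for Ccn1 and -2.03 and -2.50 for Ccn2. Spp1, which encodes osteopontin, stood at 48.8 and 26.6 CPM against 586 and 179, and Sparc, a collagen-binding protein gene, at 744 and 1586 CPM against 1792 and 3689. Fn1, the fibronectin gene, was high, at 816 and 910.2 CPM against 219.6 and 303.

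Scg3 was not accompanied by other granins in the members. Chga stood at 2.39 CPM at P1 and had no UMI at P7, Scg2 stood at 0.286 and 0.256 CPM, and Scg5 at 4.68 and 1.02. Cpe, the carboxypeptidase that trims peptides in secretory granules and also acts in other secretory cells, stood at 707 and 996 CPM against 395 and 226 in the other retained cells. Pam, which amidates peptides, stood at 134 and 113 CPM against 139 and 77.7.

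Structural collagens and the genes of interstitial fibroblasts were low in the members. Of 9 interstitial collagen genes at P1, 8 were at least 2-fold lower than in the other retained cells and none higher, with a median log2 ratio of -2.80, and 7 of 8 were lower at P7, with a median of -2.10. Col1a1 stood at 12.5 and 17.1 CPM in the members, against 285 and 163 in the other retained cells and 19.2 and 32.0 in macrophage cells. Col3a1 stood at 108 and 359 CPM, against 133 and 417 in macrophage cells, so neither stood above the free RNA level. Interstitial fibroblast genes were similar, in that 9 of 10 were at least 2-fold lower at P1 and 8 at P7, and the median log2 ratios were -2.93 and -2.07. Dcn stood at 47.3 and 170 CPM, near its 48.3 and under its 343 CPM in macrophage cells. Of 6 small leucine-rich proteoglycan genes 4 were lower at each age, while Bgn (biglycan) stood at 234 and 303 CPM against 289 and 331. Of 12 basement membrane genes 9 were lower at P1 and 7 at P7, none being higher.

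Elastic fibre and basilar membrane genes did not share this direction. Of 13 at P1, 5 were at least 2-fold higher and 2 lower, and of 11 at P7, 2 were higher and none lower. The median log2 ratios were -0.09 and 0.23. Emilin2, whose product sits at the surface of elastic fibres, stood at 31.4 and 19.7 CPM against 4.19 and 2.15. Fbn2, the fibrillin of developing tissue, stood at 117 and 128 CPM against 129 and 103.

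**Figure D3:**
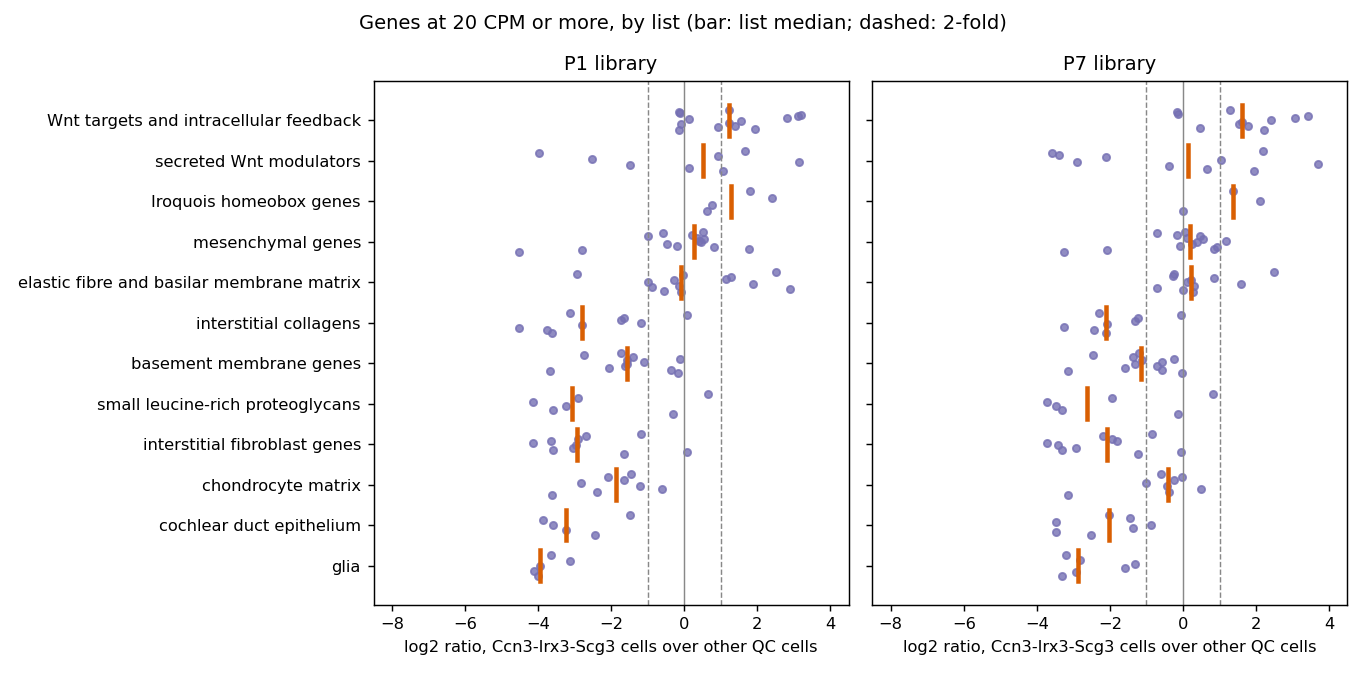
Log2 ratio of the level in Ccn3-Irx3-Scg3 cells to that in the other retained cells for each gene at 20 CPM or more in 12 gene lists, with P1 and P7 in separate panels, a bar at each list's median and dashed lines at 2-fold. The Wnt target genes have medians of 1.23 and 1.61, and the interstitial collagens -2.80 and -2.10.

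Summed markers of other cell types moved in both directions between the ages. Glial genes summed to 52.0 CPM at P1 and 1398 at P7, against 264 and 911 CPM in macrophage cells. Macrophage genes summed to 8.49 and 76.2 CPM, erythroid genes to 176 and 818 CPM. Neuronal genes summed to 164 and 68.6 CPM, against 934 and 145 in the other retained cells. Endothelial genes summed to 919.8 and 1022 CPM, against 378 and 494 in the other retained cells. Most of this was Emcn, an endothelial sialomucin, which stood high in the members at 897 and 961 CPM against 279 and 370, while Cdh5, the cadherin that defines endothelium, was near 0. The endothelial genes also summed to 724 and 1400 CPM in the Aldh1a2-Scara3 cells described further on.

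A like group of cells, called Aldh1a2-Scara3 cells here, had at least 3 UMIs of Aldh1a2 and Scara3 and Ccn3 under 0.4% of UMIs, and numbered 990 at P1 and 631 at P7. Their median depth was 7617.5 and 8612 UMIs, and Scrublet called 8.59% and 14.9% of them as doublets. Of all genes at 20 CPM or more, 2.23% were at least 2-fold higher in the members at P1 and 3.63% lower, with 1.87% and 3.38% at P7. Of 14 Wnt target genes at P1, 4 were higher in the members, namely Nkd1, Sp5, Nkd2 and Lef1, and at P7 these and Ccnd2 were 5 of 12, while none was lower. Axin2 was close between the groups, at 135 and 123 CPM in the members and 79.0 and 92.2 CPM in the Aldh1a2-Scara3 cells. Nkd1 was far apart, with 25.8 and 30.7 CPM in those cells and log2 ratios of 2.95 (2.76 to 3.15) at P1 and 2.84 (2.61 to 3.07) at P7. Wif1 and Notum had log2 ratios of 3.60 and 3.23 at P1, and 3.84 and 3.08 at P7.

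Other genes were far lower in the members than in the Aldh1a2-Scara3 cells. Of the 12 lowest at each age 8 were shared. Wnt6 had log2 ratios of -4.83 and -3.66. Mfap5, a microfibril gene, stood at 3.44 and 4.605 CPM in the members against 98.5 and 62.9. Ptgds, which makes prostaglandin D2, stood at 4.01 and 11 CPM against 97.8 and 262. Abi3bp, Lum, Clec1a, Gsta1 and Clu were the others, and Clu, the chaperone clusterin, stood at 82.8 and 332 CPM against 899 and 2212. The rule genes Irx3 and Scg3 were nearer, at 200.5 and 216 CPM for Irx3 in the Aldh1a2-Scara3 cells and 203 and 124 CPM for Scg3. Slc1a3, though given as a marker of the members, was as high in the Aldh1a2-Scara3 cells at P1 (813 CPM) and higher at P7 (591 CPM against 387).

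Cells with Ccn3 at 0.4% or more but no UMI of Irx3 or Scg3, 193 at P1 and 152 at P7, had levels between those of the members and of the Otor-high cells for several genes. They were shallower, with median depths of 5014 and 6091.5 UMIs. Their Sp5 level was 70.3 and 24.99 CPM against 200 and 73.2 in the members, and Cav1 was 144 and 122 CPM against 877 and 524. Wif1 was in contrast higher in them, at 302 and 419 CPM, and Apcdd1 stood at 245 and 201 CPM. Of the Wnt targets, 3 of 14 at P1 and 3 of 13 at P7 were at least 2-fold higher in the members than in these cells. Their median log2 ratio was 0.33 at both ages. Over all genes, 169 of 5478 were that much higher at P1 and 109 of 5793 at P7. Of 7 secreted Wnt modulators at P1, none was at least 2-fold higher in the members and 4 were lower than in these cells. Col9a1, a cartilage-type collagen gene, stood at 2282 and 3602 CPM in these cells, against 283 and 1801 CPM in the members and 3652 and 5992 CPM in the 1499 and 1282 Otor-high cells. Otor, which encodes a secreted protein of the cochlea, stood at 15968 and 14822 CPM in them, against 8118 and 13797 CPM in the members and 21535 and 24434 CPM in the Otor-high cells.

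The members were not uniform, and the Aldh1a2 and Scara3 UMIs divided them. At P1, 700 members (59.0%) had at least 3 UMIs of the pair and 205 (17.3%) had none, and at P7 it was 175 (39.95%) and 164 (37.4%). Members without the pair were shallower, with median depths of 5762 and 7730.5 UMIs against 8489 and 8910. Irx3 did not follow the split, at 501 and 379 CPM in those with the pair and 504 and 354 CPM in those without. Notum was also close, at 139 and 486 CPM against 180.4 and 472, and so was Nkd1 at 193 and 245 against 205 and 181. Other Wnt feedback genes were apart at P7, with Sp5 at 105 CPM in members with the pair and 34.97 in those without, Nkd2 at 363 and 161, and Axin2 at 158 and 92.3. At P1 the same genes were nearer, with Sp5 at 201 and 131 CPM, Nkd2 at 304 and 277, and Axin2 at 138 and 128. Wif1 went with the absence of the pair, at 84.5 and 117 CPM with it and 252 and 415 without.

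The members without Aldh1a2 and Scara3 UMIs were higher in genes of the Otor-high cells. Crym, which encodes a thyroid hormone binding protein, stood at 1625 and 1312 CPM with the pair and 4522 and 5394 without it. Col9a1 stood at 178 and 442 CPM against 808 and 3241, and Coch, which encodes cochlin, at 6.34 and 7.64 CPM against 34.7 and 182. Cldn5, a tight junction gene, stood at 23.0 and 27.0 CPM against 107 and 444. The members with the pair were higher in Cav1, at 912 and 869 CPM against 576 and 90.0, in Tnfaip6, at 415 and 1281 against 225 and 241, and in Postn, at 1355 and 1606 against 886 and 644. Osr2, a zinc finger gene of embryonic mesenchyme, stood at 86.3 and 184 CPM against 43.0 and 11.2.

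**Figure D4:**
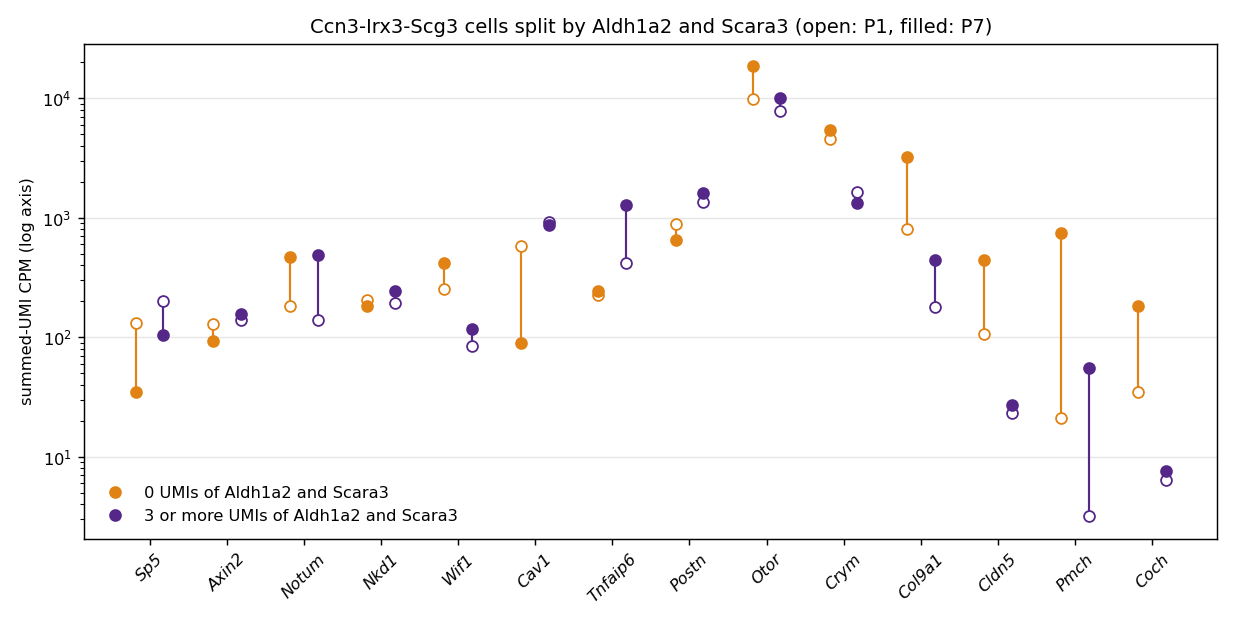
Levels of 14 genes as CPM in members with 0 and with at least 3 UMIs of Aldh1a2 and Scara3, with open points for P1 and filled points for P7. Notum lies close between the 2 kinds of member at each age, while Cav1 at P7 stands at 869 against 90.0 CPM and Crym at 1312 against 5394 CPM.

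Members ranked by Ccn3, a rule gene, differed in other genes, which is a description of the choice. Between the highest and lowest tertile of P1 members by Ccn3 share, Nkd1 stood at 283 against 133 CPM and Postn at 1604 against 848. At P7 Nkd1 stood at 263 against 179 CPM and Postn at 1477 against 724. The lowest P1 tertile was higher in Col9a1, at 496 against 126 CPM, and in Dcn, at 95.2 against 16.8. At P7 the highest tertile was higher in Car2, a carbonic anhydrase gene, at 500 against 55.5 CPM, in Igfbp7, at 336 against 62, and in the contractile and pericyte genes Actg2 and Rgs5, at 62.1 against 2.85 and 123 against 8.55. The lowest P7 tertile was higher in the glial gene Mbp, at 574 against 32.3 CPM, but 1 cell held 34.7% of the Mbp UMIs of P7 members and 5 cells held 83.4%.

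Between the ages the members differed in more genes upward than downward. Of 5846 genes at 20 CPM or more at either age, 10.3% were at least 2-fold higher at P7 and 5.11% at least 2-fold lower, and the median log2 ratio was 0.13, as it was in the other retained cells. With ribosomal, mitochondrial and haemoglobin genes left out of the scaling, 617 were higher and 473 lower, in place of 600 and 299, so the split of 66.7% upward became 56.6%. Many of the genes with the highest ratios were at or under the level in cells that should lack them. Of the 15 highest, 8 stood higher in P7 macrophage or glial cells than in P7 members, among them Mbp, a myelin gene. In the other retained cells, 13 of the 15 were also at least 2-fold higher at P7. Of 3163 genes at 50 CPM or more at either age, 273 stood at 2 times or more the level in both macrophage and glial cells, and macrophage levels are given beside several of the values that follow.

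The chondrocyte-type matrix genes were higher at P7 as a group. Of the 12 genes of the list, 8 reached 20 CPM in the members and these 8 were at least 2-fold higher in the P7 members, with a median log2 ratio of 2.30, against 0.96 in the other retained cells. Col9a1 was 283 CPM at P1 and 1801 at P7, with 248 and 1123 CPM in macrophage cells. Col9a2 was 195.3 and 1119.9 CPM, with 128 and 517 in macrophage cells, and its log2 ratio was 2.52 (2.44 to 2.60), against 1.12 in the other retained cells. Col11a1 was 59.0 and 334 CPM, with 114 and 141 in macrophage cells, a log2 ratio of 2.503 against 0.50. Col2a1 was 155 and 425 CPM and Sox9, the transcription factor of chondrocytes, 28.4 and 121. The list summed to 831 and 4396 CPM in the members, 643 and 2283 CPM in macrophage cells and 8717 and 13724 CPM in the Otor-high cells. Summed over all members, the list was thus near the free RNA level at P1 and above it at P7. The P7 members with at least 3 UMIs of Aldh1a2 and Scara3 were not above it for 3 of these genes. Col9a1, Col9a2 and Col11a1 stood at 442, 310 and 88.2 CPM in them, each under its level in P7 macrophage cells. In P7 members without such UMIs the same genes stood at 3241, 2028 and 596 CPM. Against the other retained cells at P7, 2 of the 8 genes were at least 2-fold lower and none higher, with a median of -0.42.

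Genes of the Otor-high fibrocytes moved in the same direction. Of 8 genes, 5 were at least 2-fold higher at P7, with a median log2 ratio of 2.19, against 0.10 in the other retained cells. Coch was 12.2 CPM at P1 and 83.6 at P7, with 14.9 and 8.38 in macrophage cells, a log2 ratio of 2.78 (2.48 to 3.08), while in the other retained cells it was -0.53. Cldn5 was 42.6 and 229 CPM, with 33.4 and 46.5 in macrophage cells, a log2 ratio of 2.43 (2.26 to 2.60) against 0.08. These changes were small in members with at least 3 UMIs of Aldh1a2 and Scara3, where the log2 ratios were 0.27 for Coch and 0.23 for Cldn5, and large in members without, at 2.39 and 2.05. Otos, the gene for otospiralin, was 1.43 and 36.3 CPM, under its 136 CPM in P7 macrophage cells.

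Of 7 secreted Wnt modulators at 20 CPM or more in the members, 3 were at least 2-fold higher at P7 and none lower, with a median log2 ratio of 0.71, against 0.80 in the other retained cells. Notum had a log2 ratio of 1.87 (1.77 to 1.96), against 1.32 in the other retained cells, and it was 1.80 in members with the Aldh1a2 and Scara3 UMIs and 1.39 in those without. Wif1 had a log2 ratio of 1.07 (0.95 to 1.19), against 0.54, but it was 0.47 in members with the pair and 0.72 in those without, under 2-fold in both. Frzb, another secreted Frizzled-related antagonist, was 17.1 and 76.2 CPM, a log2 ratio of 2.16. Of the Wnt target list none was at least 2-fold higher and 2 of 14 were lower, Sp5 at -1.45 (-1.63 to -1.27) and Apc at -1.10. Sp5 in the other retained cells had -1.67, and the list's median was -0.23 in the members and -0.39 in the others.

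Single genes of other kinds stood out at P7. Pmch, the gene for the precursor of melanin-concentrating hormone, was 5.34 CPM at P1 (56 UMIs, of which 33.9% lay in 1 cell) and 311 CPM at P7 (1215 UMIs, of which 6.58% lay in 1 cell). Its P7 level was 27.4 CPM in macrophage cells and 97.6 in glial cells, and it was 5.26 and 74.0 CPM in the other retained cells. Within the P7 members it stood at 55.3 CPM in those with at least 3 Aldh1a2 and Scara3 UMIs and 747 CPM in those without. Car2 was 13.0 and 228 CPM, a log2 ratio of 4.14, and was also higher at P7 in the other retained cells, though by less. Tnfrsf11b, the gene for osteoprotegerin, a decoy receptor that restrains bone resorption, was 11.5 and 92.1 CPM. It was also higher at P7 outside the members, which held 16.7% of its UMIs in retained cells at P1 and 8.63% at P7. Bambi, a BMP and TGF-beta pseudoreceptor, was 84.6 and 446 CPM, a log2 ratio of 2.40 beside 1.94 in the other retained cells.

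The genes lower at P7 included several of the leaders at P1. Scg3 had a log2 ratio of -1.26, Ccdc80 of -1.56, Olfm1 of -1.50 and Dach1 of -1.37. Each was also lower at P7 in the other retained cells, Olfm1 and Dach1 by about as much and Scg3 and Ccdc80 by less. Of the 15 genes with the lowest ratio of P7 to P1, 13 were also at least 2-fold lower there. Rgs16, a regulator of G-protein signalling, was 122 CPM at P1 and 24.3 at P7, a log2 ratio of -2.33 against -1.46 in the other retained cells. Shisa8 was 61.8 and 13.0 CPM, -2.24 against -0.52. Hist1h1e, a linker histone gene, also went down across the library, at 273 and 43.0 CPM with log2 ratios of -2.67 in the members and -2.30 outside them. Egr1, an immediate early gene, was 468 and 108 CPM, -2.12 against -2.31. The Y-linked Eif2s3y was 61.8 and 11.5 CPM in the members and 68.4 and 8.83 CPM in the other retained cells, and the part of the sex mix of the pools was not tested.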

How the data were processed

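UMI counts per gene and barcode of 2 libraries (P1, P7) were used as the authors deposited them. Per the labels, file headers and Methods, the authors used bcl2fastq, Cell Ranger 3.1.0, rn6 and Seurat 3.1.1. Barcodes with more than 500 and fewer than 5000 genes and under 25% mitochondrial UMIs were retained. The members and the 37 gene lists (461 genes, 452 in the files) were chosen with earlier results of these data known. UMIs were summed per group and library, and log2 ratios taken as CPM without a pseudocount, for genes at 20 CPM or more on either side. A gene at 0 was set to 3 counts. Intervals (95%) are Clopper-Pearson for shares and conditional binomial for ratios. Macrophage and glial cells had 10 or more UMIs of C1qa, C1qb, C1qc and Lyz2, or of glial marker genes. Some genes are not reported here. The Aldh1a2-Scara3, Otor-high and Gpc3-high groups left out dividing cells. Otor-high cells had Otor at 1.5% of UMIs or more and were no members or Aldh1a2-Scara3 cells, and Gpc3-high cells were those remaining with Gpc3 at 0.1% or more.

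The genes named were the given markers, list members, the top 20 over other retained cells, the 15 highest and lowest of P7 over P1 and the 12 highest and lowest over Aldh1a2-Scara3 cells. From the 50 CPM genes at 2 times the macrophage and glial level, Coch, Cldn5, Col9a2, Col11a1 and Bambi were named after their values were seen, as were the genes of the Ccn3 tertiles. Python 3.11.15, numpy 2.4.6, scipy 1.17.1, pandas 2.3.3, matplotlib 3.10.9 and, for Scrublet, scanpy 1.11.5 were used. Steps were tested on simulated data. Alternatives changed the rule's limits, depth, scaling, filter, doublets and cells used.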

Additional observations from a re-analysis of the deposited data

Results flagged for a closer look

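Cdkn1a, which encodes the cell cycle inhibitor p21, lay on opposite sides of the other retained cells at the 2 ages. Its log2 ratio of members to other retained cells was -1.16 at P1, with 9.07 against 20.2 CPM, and 1.45 at P7, with 62.9 against 23.0 CPM. Macrophage cells held 107 and 63.2 CPM of Cdkn1a. The difference between the ages was not tested.

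Oc90, the gene for the otoconial matrix protein otoconin, was lower at P7 in the members and higher at P7 in the other retained cells. The log2 ratio of P7 to P1 was -2.37 in the members and 1.31 in the others. At P1 1 member held 88.0% of the Oc90 UMIs of all members. The difference was not tested.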

How the results depend on the processing

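The share of members was lower at P7 under every alternative run. In the order P1, P7 and log2 ratio it was 11.05%, 4.75% and -1.22 with Ccn3 at 0.2% or more, 4.601%, 2.07% and -1.15 with 0.8%, 10.7%, 4.92% and -1.12 with at least 2 Irx3 and Scg3 UMIs, 6.98%, 1.77% and -1.98 with at least 5, 7.88%, 2.08% and -1.92 with cells thinned to 4000 UMIs, and 10.7%, 4.68% and -1.20 with under 10% mitochondrial UMIs. Of retained cells without a Top2a or Ube2c UMI, members were 10.6% and 4.01%. Counts of genes past 2-fold followed the filter. With 50 CPM, 260 were higher and 144 lower at P7 than at P1. Against the other retained cells 87 were then higher and 226 lower at P1, and 91 and 207 at P7. Against the Aldh1a2-Scara3 cells it was 65 and 105 at P1 and 66 and 104 at P7. With no filter beyond 1 UMI, the counts were 4537 and 1397 between the ages, 4731 and 3005 against the other retained cells at P1, and 6117 and 1780 at P7. Between the ages, 473 genes were lower without ribosomal, mitochondrial and haemoglobin genes in the scaling, and 455 in members with 0 Aldh1a2 and Scara3 UMIs. Among genes at 2 times the macrophage and glial level, 105 were higher and 42 lower of 475, which holds fewer genes by construction. The last 2 settings, and those against the Aldh1a2-Scara3 cells, were chosen after seeing the data. Oc90 turned upward between the ages, to 1.49 with Ccn3 at 0.2%, 1.03 at 0.8%, 0.96 with at least 5 Irx3 and Scg3 UMIs, 0.95 after thinning, 0.47 in members of 4000 to 12000 UMIs and 0.38 in members with 0 Aldh1a2 and Scara3 UMIs. The cause of the other changes was not tested. Of 71 named genes 38 were past 2-fold between the ages, and of these 35 to 38 stayed so in the same direction under each setting, apart from 28 in members with at least 3 Aldh1a2 and Scara3 UMIs. No paired analysis was possible because each age had 1 library, and for the same reason no replicate could be left out.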

Other observations

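Other gene groups of the members also differed from the rest of the library or between the ages. Of 9 insulin-like growth factor genes at P1, 7 were at least 2-fold lower in the members than in the other retained cells, and 5 of 9 at P7. Igf1 itself, a growth factor of mesenchymal tissue, stood at 74.3 CPM in P1 members and 228 at P7, a log2 ratio of 1.62 against -0.22 outside them, with 340.1 and 267 CPM in macrophage cells. Igfbp4 stood at 557 and 1512 CPM, with 509.8 and 889 in macrophage cells. Cyp1b1, a retinoid-metabolising cytochrome, stood at 538 and 601 CPM against 188 and 152 in the other retained cells. Gja4, the connexin 37 gene, stood at 42.5 and 98.5 CPM against 14.8 and 31.6, and Fgfr4 at 33.1 and 86.2 CPM against 9.40 and 27.9.

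Immediate early genes, which cells switch on quickly after a stimulus, were uneven between the groups. Fos stood at 582.5 and 223 CPM in the members and 1207 and 351 CPM in the other retained cells. Jun stood at 216 and 301 CPM in the members, a log2 ratio of 0.48 between the ages, and at 753 and 378 CPM in the others, a ratio of -0.996. Of 14 genes of this list at P1 none was at least 2-fold higher in the members and 4 were lower, and of 13 at P7 it was none and 1.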
